A study of Mus musculus with 8 samples.

Results

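The microRNA miR-7 was measured in mouse dendritic cells grown from bone marrow, with and without overnight exposure to a CpG oligonucleotide. Its members on the array were chosen by name: mmu-miR-7a, mmu-miR-7a* and mmu-miR-7b, which make 3 of the 567 mouse miRNAs that the array carries. The choice was made with their levels and the ratio of the miR-7a arms in these same arrays already known, so those values are given as a description, with no test. The CpG group had 4 arrays of cells given the class B oligonucleotide ODN1826 at 10 µM, and the untreated group had 4 arrays of cells given no CpG. One label describes the control as medium without the oligonucleotide and another as PBS, and no control oligonucleotide is named. All cells came from C57BL/6 mice and were the non-adherent cells of day 9 of culture in GM-CSF at 40 ng/ml, the cytokine that drives the outgrowth of myeloid cells from marrow. All 8 samples were hybridised to 1 slide, in the Cy3 colour alone. The labels do not say whether the 4 replicates of a group came from separate animals or cultures, so the spreads and p-values below describe these samples, and the spread may be technical.

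MicroRNAs are cut from hairpin precursors whose 2 arms each give a short RNA. One arm, the guide, is usually kept in the Argonaute protein and pairs with messenger RNAs through its seed, and the other, the passenger, marked with an asterisk in the older names used by this array, is usually lost. miR-7 is an ancient miRNA known mainly from neurons and endocrine cells such as those of the pancreatic islet and the pituitary. In the brain it is bound by the circular RNA Cdr1as, which miR-671 directs to be cut, and the long noncoding RNA Cyrano directs the decay of miR-7. CpG oligonucleotides are sensed in the endosome by the receptor TLR9.

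The mature sequences show what the 3 names refer to and how alike they are. They are from RefSeq (GRCm38.p6), are written 5′ to 3′, and carry the seed, bases 2 to 8, in capitals.
mmu-miR-7a-5p: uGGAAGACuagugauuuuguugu
mmu-miR-7b-5p: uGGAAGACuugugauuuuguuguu
mmu-miR-7a-1-3p: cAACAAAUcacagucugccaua
mmu-miR-7a-2-3p: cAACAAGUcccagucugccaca
mmu-miR-7b-3p: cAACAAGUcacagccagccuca
The guides miR-7a-5p and miR-7b-5p share the seed GGAAGAC. Counted from the 5′ end of miR-7a-5p, the only difference over the 23 bases compared is A10U, and miR-7b-5p is 1 base longer. Among the 1679 mature mouse miRNA names of the RefSeq table, only these 2 carry that seed, from 3 loci. The passenger arms differ more: from miR-7a-1-3p to miR-7a-2-3p the changes are A7G, A10C and U21C, and from miR-7a-1-3p to miR-7b-3p they are A7G, U14C, U16A, A20U and U21C. Because A7G lies within the seed, miR-7a-1-3p has a seed that the other passenger arms do not share.

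The guide miR-7a-5p is encoded at 2 loci. Mir7-1 lies at chr13:58392779-58392886 on the minus strand, within the span of Hnrnpk, which encodes an RNA-binding protein, and Mir7-2 lies at chr7:78888277-78888373 on the plus strand. The single Mir7b locus is at chr17:56242988-56243098 on the plus strand (all GRCm38). No gene of the RefSeq table spans Mir7-2 or Mir7b. The Mir7-1 hairpin is shown because both detected members can be placed on it, and its guide and passenger arms are in capitals.
Mir7-1: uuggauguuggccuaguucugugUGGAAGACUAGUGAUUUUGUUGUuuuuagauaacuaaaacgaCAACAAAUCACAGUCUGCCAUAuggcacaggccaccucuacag
The guide sequence is the same at Mir7-1 and Mir7-2, so the miR-7a signal cannot be assigned to either locus. The array annotation (mm9) places the miR-7a and miR-7a* probes on chromosome 13, with their shared ends 41 bases apart, which equals the 41 bases between the same ends of miR-7a-5p and miR-7a-1-3p in RefSeq. The member called miR-7a* is therefore taken as the passenger arm of Mir7-1, which has no matching arm of the same sequence at the other loci.

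Each member was read by 2 probes of different length, with 20 spots per array in all. In the array annotation (mm9) the miR-7a probes span 22 bases (chr13:58494202-58494223) and 21 bases (chr13:58494202-58494222), and the miR-7a* probes span 19 bases (chr13:58494161-58494179) and 18 bases (chr13:58494161-58494178). The miR-7b probes span 22 bases (chr17:56382441-56382462) and 23 bases (chr17:56382440-56382462). If the end that the probes of a member share is the 3′ end of the mature RNA, every miR-7a and miR-7b probe covers position 10. The guides miR-7a and miR-7b differ there. How far each probe hybridises to the other guide was not measured here.

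Across the slide, the CpG arrays were brighter. Among the 177 mouse miRNAs that every array detected, the 75th percentile of signal was 157, 252, 180 and 280.5 units on CpG arrays 1 to 4, against 101, 124, 144 and 120 units on untreated arrays 1 to 4, a log2 difference of 0.80, and the groups did not overlap. The CpG arrays had 213 to 236 mouse miRNAs detected and the untreated arrays 191 to 203. The control features named hur differed by 0.24 on the log2 scale, with overlapping groups. Levels are therefore given both as signal units and as log2 of the signal divided by the array's own 75th percentile, called the scaled level. The part that RNA amount, labelling or a change common to many miRNAs played in the brightness was not tested. In a bulk culture, fewer cells of a type and less RNA per cell cannot be told apart.

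The labelled cell type could be checked only for its blood-cell origin. All 3 blood-cell and myeloid miRNAs (miR-223, miR-142-3p and miR-142-5p) were detected on all 8 arrays, with a summed signal of 3703 to 6438 units in CpG arrays and 3235 to 3920 units in untreated arrays. These sums are unscaled. Scaled, the difference, CpG minus untreated, was -0.60 for miR-223, -0.20 for miR-142-3p and -0.021 for miR-142-5p. Of these, only miR-223 passed at an adjusted p under 0.05 (adjusted p = 0.0284, limma), as 6.6% of all tested miRNAs did in the lower direction. None of them is particular to dendritic cells. Of 15 miRNAs that mark other cells, 13 were detected on no array, among them miR-124 of neurons and miR-375 of islet cells, the cell types in which miR-7 is best known. The remaining 2, the epithelial miR-200c and miR-141, were detected on 4 CpG arrays and 1 untreated array each. The 3 epithelial miRNAs, which include the undetected miR-205, summed to 11.01 to 17.7 units in CpG arrays and 5.98 to 11.04 units in untreated arrays. These sums and the detection counts are also unscaled, and the CpG arrays were brighter. Scaled, the difference was -0.17 for miR-200c and -0.063 for miR-141, with overlapping groups. The part of the epithelial miRNAs in the miR-7 values was not tested. The list of 15 was not exhaustive. For muscle it held miR-1, miR-133a and miR-133b, and it left out miR-206, which was detected often enough to be tested. Also left out was the epithelial miR-200b, with a scaled difference of -0.59 (adjusted p = 0.0764, limma). Its groups did not overlap, as was so for 26.9% of all tested miRNAs.

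miR-7a, the guide arm, was detected on all 8 arrays. Its total signal was 51.5, 132, 98.4 and 146 units on CpG arrays 1 to 4 and 26.8, 34.8, 62.3 and 28.8 units on untreated arrays 1 to 4. The deposited error of these values was 3.06 to 13.6 units, and each signal was 8.67 to 10.8 times its error. CpG array 1 was the dimmest of its group and lay below untreated array 3, the brightest of its own, so the groups overlapped even before the arrays were scaled.

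The scaled level of miR-7a was -2.10, -1.37, -1.36 and -1.40 on CpG arrays 1 to 4. On untreated arrays 1 to 4 it was -2.42, -2.27, -1.70 and -2.52. CpG arrays 2, 3 and 4 were nearly equal and lay above every untreated array, whereas CpG array 1 again lay below untreated array 3. The scaled level averaged -1.56 ± 0.36 in CpG-treated cells and -2.23 ± 0.36 in untreated cells (SD, n = 4 each), a difference of 0.67 with a standard error of 0.23, or 1.59-fold. Without scaling, the log2 signal averaged 6.16 ± 0.70 in CpG-treated cells and 4.70 ± 0.54 in untreated cells (SD, n = 4 each), a difference of 1.47, or 2.77-fold. With normexp background correction, run with an offset of 50 units added to each spot, the difference was 0.051, close to 0. That offset lies within the range of the miR-7a signals, and its own part in the change was not tested. The size of the miR-7a difference therefore depended on both the scaling and the background correction with its offset. Without CpG array 1 the scaled difference was 0.85, and without untreated array 3 it was 0.87.

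**Figure D1:**
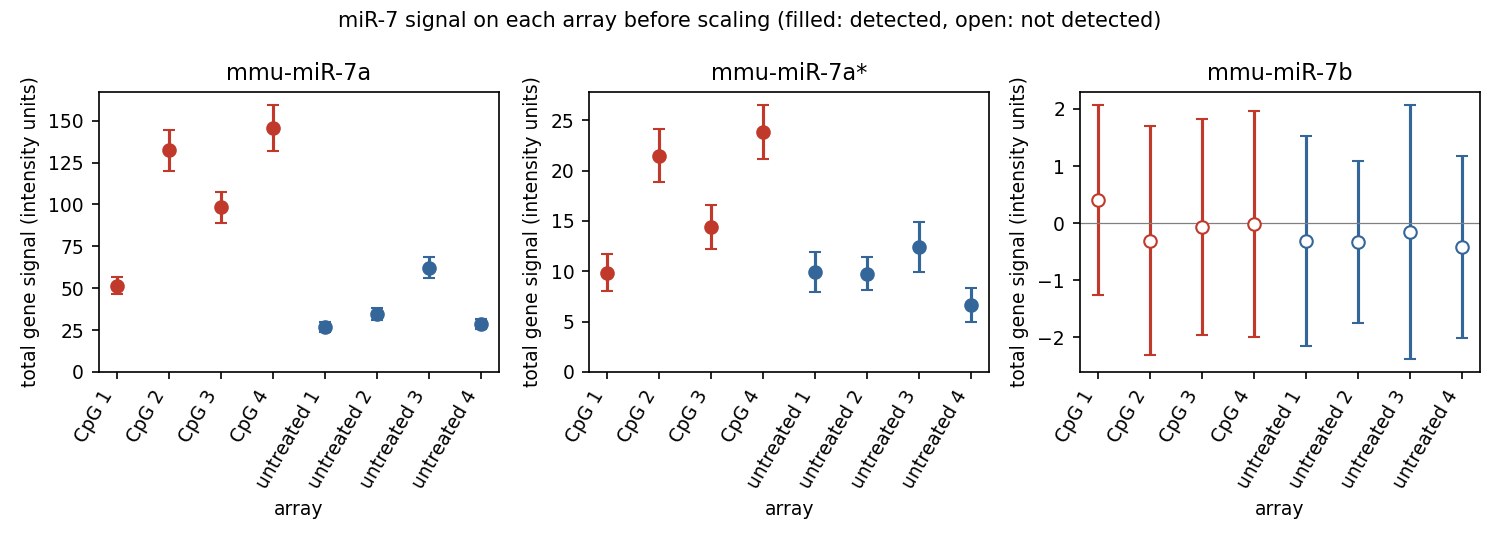
Total signal of miR-7a, miR-7a* and miR-7b in fluorescence units on each of the 4 CpG and 4 untreated arrays, with the deposited error as bars. miR-7a lies between 51.5 and 146 units on the CpG arrays and between 26.8 and 62.3 units on the untreated arrays, and miR-7b lies near 0 on all 8 arrays.

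miR-7a*, the passenger arm of Mir7-1, was also detected on all 8 arrays, at signals closer to background. Its total signal was 9.87, 21.5, 14.4 and 23.8 units on CpG arrays 1 to 4 and 9.88, 9.77, 12.4 and 6.67 units on untreated arrays 1 to 4. The deposited error was 1.62 to 2.68 units, and each signal was 3.97 to 8.89 times its error. CpG arrays 2, 3 and 4 were the brightest of the 8, and CpG array 1 lay among the untreated arrays.

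Once scaled, miR-7a* showed no such order. Its scaled level was -4.49, -4.00, -4.13 and -4.01 on CpG arrays 1 to 4 and -3.86, -4.10, -4.03 and -4.63 on untreated arrays 1 to 4. Both groups averaged -4.16, with an SD of 0.23 in CpG-treated cells and 0.33 in untreated cells (n = 4 each), and the difference was -0.00062 with a standard error of 0.20. Without scaling the log2 signal averaged 3.57 ± 0.61 in CpG-treated cells and 2.77 ± 0.36 in untreated cells (SD, n = 4 each), a difference of 0.80, or 1.74-fold, with overlapping groups. The unscaled difference of miR-7a* had the same size as that of the 75th percentile, and with normexp the scaled difference was -0.31.

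**Figure D2:**
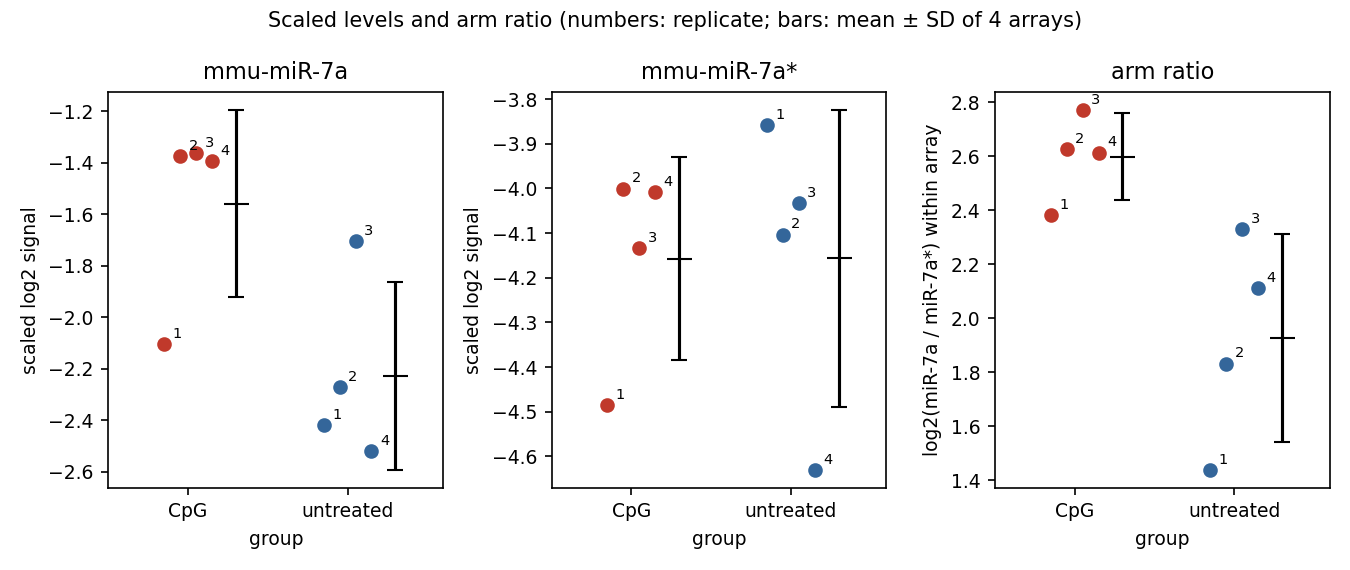
Scaled log2 levels of miR-7a and miR-7a* and their within-array log2 ratio, one point per array, with CpG left of untreated and the mean ± SD of 4 arrays. The miR-7a groups overlap through CpG array 1 and untreated array 3, the miR-7a* means coincide at -4.16, and the ratio lies at 2.38 or above on CpG arrays and at 2.33 or below on untreated arrays.

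miR-7b, whose guide shares the miR-7a seed, was detected on none of the 8 arrays. Its total signal was 0.406, -0.304, -0.0677 and -0.0203 units on CpG arrays 1 to 4 and -0.307, -0.332, -0.154 and -0.416 units on untreated arrays 1 to 4, with a deposited error of 1.42 to 2.23 units. Every value was smaller than its error, in both groups. None of the 80 spots of either miR-7b probe was well above background, and the probe means were -0.71 to 0.79 units over the 8 arrays. The negative-control spots averaged -0.518 to 0.901 units on CpG arrays and 0.453 to 0.892 units on untreated arrays, with an SD between spots of 1.41 to 2.11 units over the 8 arrays. The authors' deposited table of 260 miRNAs lists miR-7a and miR-7a* but not miR-7b. No fold is given for miR-7b, since it was not well above background in either group.

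Within each array the ratio of the arms is free of any factor that multiplies all signals of that array. A residue added to the signals would not cancel. Because the probes of the arms differ in brightness, only the change of this ratio between groups is read, not its height. The log2 of miR-7a over miR-7a* was 2.38, 2.63, 2.77 and 2.61 on CpG arrays 1 to 4 and 1.44, 1.83, 2.33 and 2.11 on untreated arrays 1 to 4. The lowest CpG array was above the highest untreated array, by a narrow margin. In each group, array 1 had both the lowest ratio and the lowest 75th percentile of signal. Since every CpG array was brighter by that percentile than every untreated array, CpG and brightness cannot be told apart in this ratio. The ratio averaged 2.60 ± 0.16 in CpG-treated cells and 1.93 ± 0.38 in untreated cells (SD, n = 4 each), a difference of 0.67, or 1.59-fold in favour of the guide arm. With normexp the difference of the ratio was 0.36. As the ratio was named when the members were chosen, this is a description of these 8 arrays. The slide held 2 CpG and 2 untreated arrays in each of its 2 rows, and the ratio differed by 0.72 within row 1 and by 0.62 within row 2. In the same rows the scaled difference of miR-7a was 0.72 and 0.62, and that of miR-7a* was -0.0024 and 0.0012.

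The probes did not carry these values equally. The 22-base probe of miR-7a gave 65.9, 176, 128 and 196 units on CpG arrays 1 to 4 and 34.8, 46.4, 79.0 and 37.8 units on untreated arrays 1 to 4. All of its 80 spots were well above background. The 21-base probe of miR-7a, 1 base shorter, gave 6.99 to 18.4 units on CpG arrays and 3.00 to 9.19 units on untreated arrays, with 30 of 40 CpG spots and 3 of 40 untreated spots well above background. The longer probe thus supplied most of the miR-7a signal, and the scaled difference of the longer probe was 0.68. The median coefficient of variation between spots was 5.14% for the 22-base probe and 22.1% for the 21-base probe.

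For miR-7a* the 19-base probe gave 9.59, 23.0, 14.7 and 24.0 units on CpG arrays 1 to 4 and 8.78, 10.7, 13.4 and 7.57 units on untreated arrays 1 to 4. It had 37 of 40 CpG spots and 26 of 40 untreated spots well above background. The 18-base probe gave 4.39 to 10.8 units on CpG arrays and 2.15 to 5.16 units on untreated arrays, with 11 of 40 CpG spots and 0 of 40 untreated spots well above background. The passenger arm was therefore read in untreated cells mainly through the 19-base probe, and the scaled difference of that probe was -0.043. Spot to spot, the median coefficient of variation was 19.4% for the 19-base probe and 33.7% for the 18-base probe. No spot of the 3 members was saturated.

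The miR-7a probes were also set against the 19-base probe of miR-7a*. With the 22-base and 19-base probes, the brighter of each arm, the log2 ratio averaged 2.97 ± 0.15 in CpG-treated cells and 2.25 ± 0.25 in untreated cells (SD, n = 4 each), a difference of 0.72, and its range was 2.78 to 3.12 on CpG arrays and 1.99 to 2.56 on untreated arrays. With the 21-base and 19-base probes the difference was 0.62 and the groups again did not overlap. The 21-base probe was mostly not well above background in untreated cells, so this second value adds little to the first. With the 18-base probe of miR-7a* the groups overlapped, and no difference is read from it, since none of its untreated spots was well above background. The pairs share probes and arrays and are not replicates of each other.

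Among miRNAs that the array names as a guide and an asterisk arm, miR-7a was one of 15 pairs whose arms were both detected on all 8 arrays. Arms named otherwise, such as miR-142-3p and miR-142-5p, were not paired here. The difference of the arm ratio was positive in 6 of the 15 pairs, with a median of -0.21 and a range of -0.89 to 1.35. Only miR-877, at 1.35, and miR-674, at 1.08, had a higher difference than miR-7a. The groups did not overlap in 6 of the 15 pairs (40%), miR-7a among them, and nothing is read from miR-7a falling among those.

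**Figure D3:**
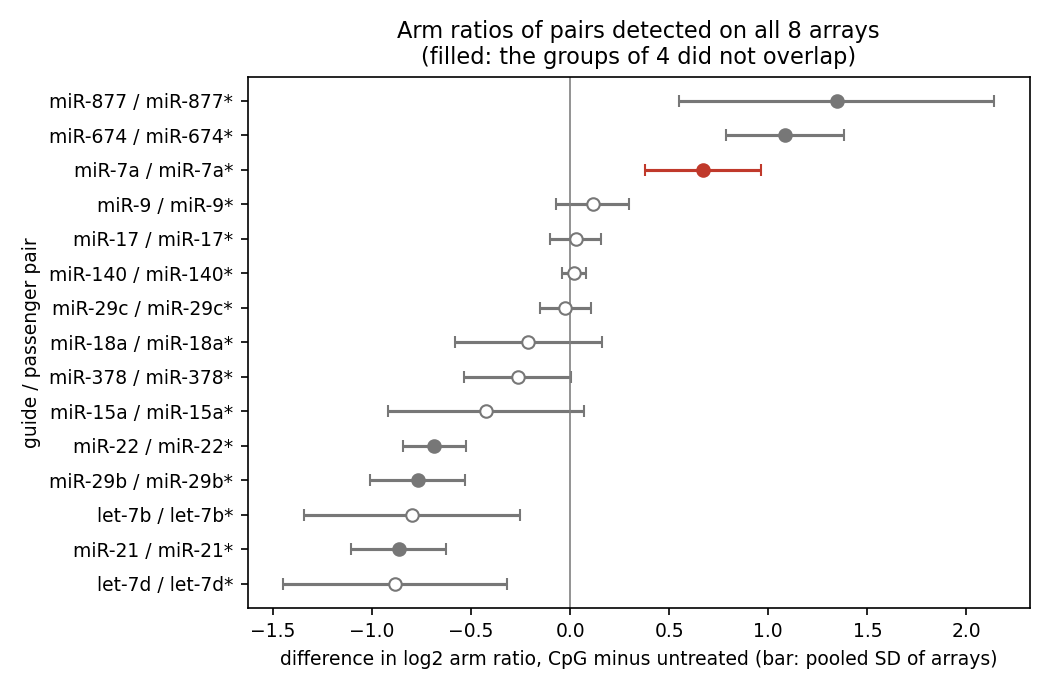
Difference, CpG minus untreated, of the within-array log2 arm ratio for the 15 miRNAs with a guide and an asterisk arm both detected on all 8 arrays, in order of size. The miR-7a pair is at 0.67, the third from the highest, in a range of -0.89 to 1.35.

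The fit across all miRNAs places the members among the rest. A miRNA was tested with limma where 3 or more of the 4 arrays in either group detected it. Of the 212 mouse miRNAs tested, 30 (14.2%) passed at a Benjamini-Hochberg adjusted p under 0.05, 16 of them higher and 14 lower in CpG-treated cells. Of the 3 members, 2 were detected often enough to be tested and 0 passed in this fit, with 1 of the 2 at an unadjusted p under 0.05 beside 85 of all 212. The groups did not overlap for 57 of the 212 (26.9%) and for 0 of the 2 members. Since the members were chosen on this contrast, nothing is read from these counts. The total of 30 was itself unstable, at 5 without untreated array 2 and 71 without CpG array 1. The members' count was 0 in 20 of the 26 alternatives and 1 in the other 6, and nothing is read from those counts either.

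The median scaled difference of the 212 was -0.19, with quartiles of -0.37 and 0.40, and without scaling the median was 0.60. Relative to the median, miR-7a was 0.86 higher with scaling and 0.87 higher without, and miR-7a* was 0.19 and 0.20 higher. From the highest difference down, miR-7a was at rank 31 of the 212 and miR-7a* at rank 76. A scaling factor moves all miRNAs of an array alike, so these relative values are bound to be nearly the same with and without it. With normexp background correction, which does not act alike on all signals, they were 0.31 for miR-7a and -0.050 for miR-7a*.

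**Figure D4:**
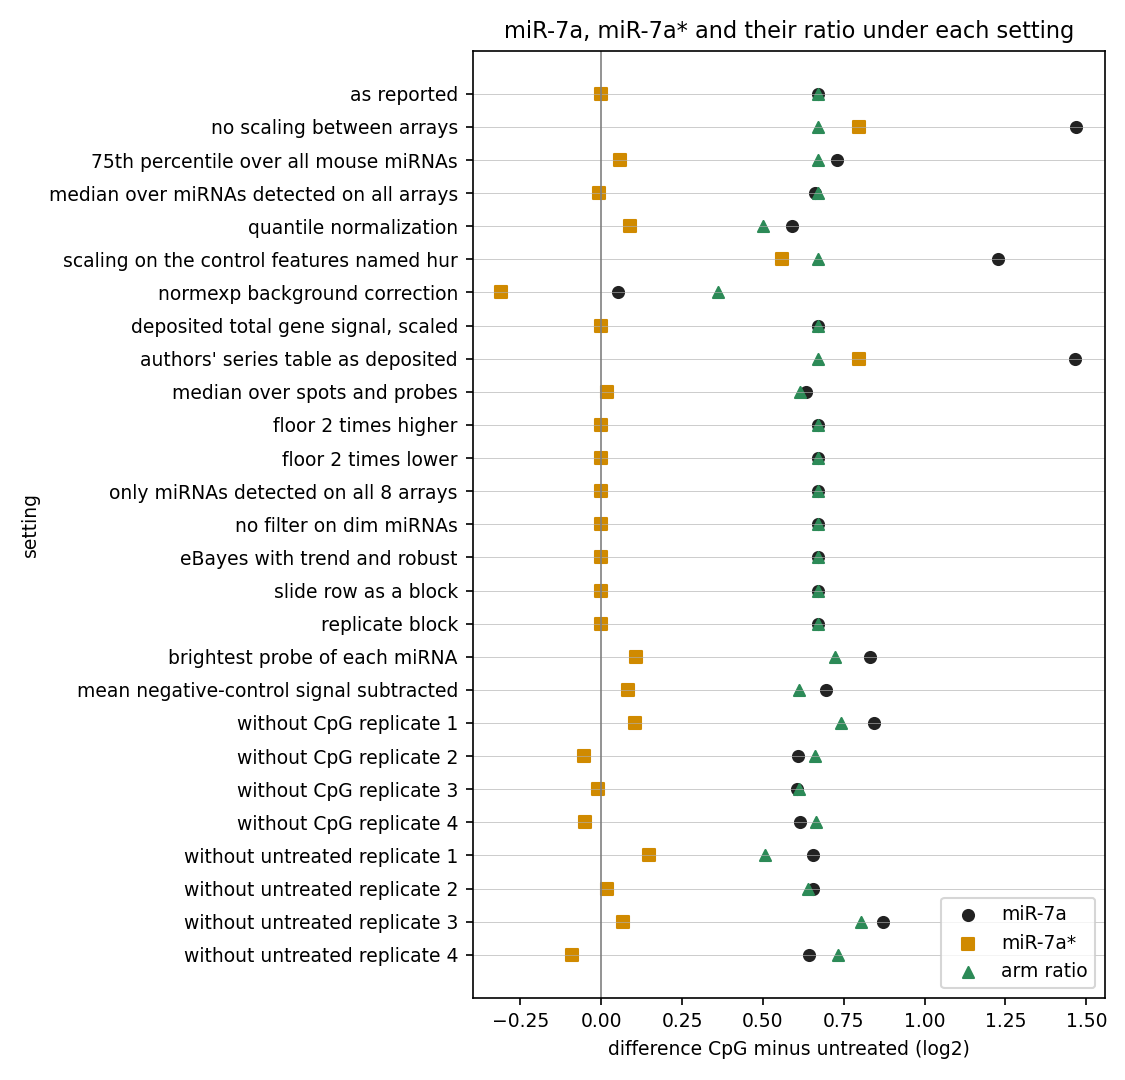
Log2 difference, CpG minus untreated, of miR-7a, miR-7a* and their arm ratio under the reported setting and the alternatives. The miR-7a values lie between 0.051 and 1.47, those of miR-7a* between -0.31 and 0.80, and those of the arm ratio between 0.36 and 0.80.

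The miRNAs whose scaled levels followed miR-7a most closely over the 8 arrays were miR-669b, with a Pearson r of 0.97, miR-206 and miR-297a, both at 0.97, miR-467c at 0.96 and miR-197 at 0.95. These are the 5 highest of 210 compared, with no test, and all points share the arrays and the scaling factor of each array. Like miR-7a, they were low on CpG array 1 and raised on untreated array 3. Of the 5, miR-206 was near the floor, at -6.19 on CpG array 1 and at the floor of -6.55 on untreated array 4. The closest, miR-669b, had a scaled level of -5.15 on CpG array 1 and -3.73 to -3.78 on the other 3 CpG arrays, against -4.41 on untreated array 3 and -5.10 to -5.22 on the other 3 untreated arrays. By the same measure the partner arm miR-7a* had an r of 0.42 with miR-7a, where the median of the 210 was -0.45. Within groups, the r of the arms was 0.96 over the 4 CpG arrays and 0.39 over the 4 untreated arrays. Without scaling, when all miRNAs share the brightness of the array, the r of the arms was 0.93. The lowest values belonged to miR-181b and miR-27a, both at -0.93, and miR-185, at -0.92.

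The r values of these miRNAs changed with the treatment of background and brightness. With normexp correction and its offset of 50 units, r with miR-7a was -0.19 for miR-669b, -0.26 for miR-206, -0.0050 for miR-297a, -0.29 for miR-467c and 0.84 for miR-197. All but miR-197 were dim, with mean scaled levels of -5.02 to -3.36 in CpG-treated cells and -5.99 to -4.09 in untreated cells. For miR-197 the means were -0.75 and -1.76. An offset added to each spot flattens dim signals most, so nothing is read from the lower r values. Without scaling, r was 0.80 for miR-185, 0.33 for miR-27a and 0.87 for miR-181b. Between groups, the adjusted p-values of these 8 miRNAs in limma were 0.0764 to 0.24.

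**Figure D5:**
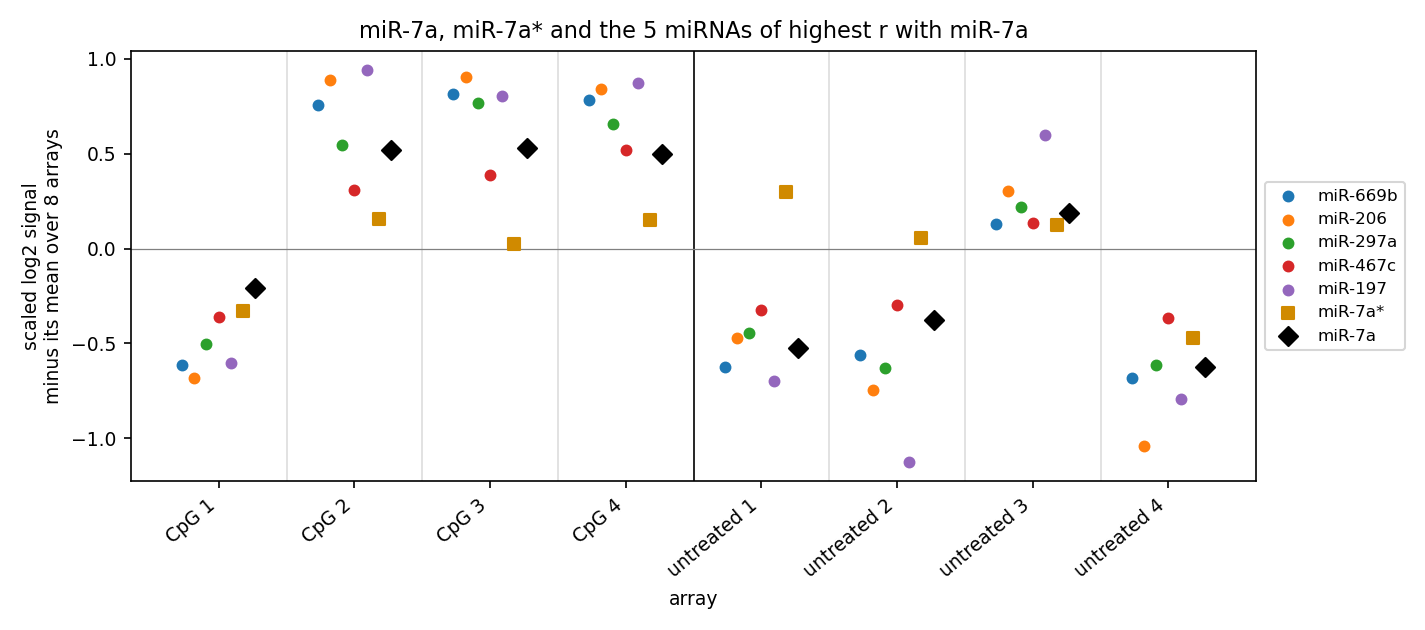
Scaled log2 level minus its own mean over the 8 arrays for miR-7a, miR-7a* and the 5 miRNAs with the highest r with miR-7a, by array, with CpG left of untreated. All 5 lie below their mean on CpG array 1 and above it on untreated array 3, as miR-7a and miR-7a* do. On untreated arrays 1 and 2 miR-7a* lies above its mean, and miR-7a and the 5 lie below theirs.

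miR-671, the miRNA that directs the cutting of Cdr1as, was read on the array through both arms. miR-671-5p was detected on all 8 arrays, with a total signal of 24.2, 20.7, 22.7 and 32.2 units on CpG arrays 1 to 4 and 16.0, 15.4, 20.6 and 18.3 units on untreated arrays 1 to 4. Its scaled level averaged -3.57 ± 0.36 in CpG-treated cells and -3.27 ± 0.13 in untreated cells (SD, n = 4 each), and the difference of -0.30 (SE 0.19) did not pass in limma, with an adjusted p of 0.24. Without scaling the difference was 0.50, so its sign turned with the scaling. miR-671-3p was detected on no array. Cdr1as and Cyrano themselves are not miRNAs and were not measured by this array.

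The other miRNAs known, like miR-7, from neurons or endocrine cells were mostly dim or undetected. Of 19 names in the list with miR-671, 15 were on the array, 9 were detected on at least 1 array and 6 were tested. Of those 6, 0 were higher and 1 was lower in CpG-treated cells at an adjusted p under 0.05 in limma, beside 7.55% higher and 6.6% lower among all 212, and at an unadjusted p under 0.05 the counts were the same, 0 and 1, beside 13.7% higher and 26.4% lower among all 212. The median difference of the 6 was -0.23, close to the -0.19 of all tested miRNAs. The undetected names were miR-671-3p, miR-124, miR-137, miR-153, miR-218 and miR-375.

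The member that passed was miR-138, a miRNA enriched in the brain. Its scaled level was -5.50, -4.75, -4.58 and -4.34 on CpG arrays 1 to 4 and -3.99, -2.92, -3.89 and -2.75 on untreated arrays 1 to 4, so every CpG array lay below every untreated array. The difference was -1.40 (SE 0.34, adjusted p = 0.0284, limma), and -0.60 without scaling, which did not pass. It was detected on 3 CpG arrays and 4 untreated arrays, and it passed in 16 of 25 alternatives. The call was lost without CpG array 2, without CpG array 3 and without untreated array 2. It was also lost without scaling, with quantile normalization, with scaling on the hur features, on the authors' deposited values, with no filter on dim miRNAs and after subtraction of the mean negative-control signal.

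The remaining tested names did not pass in limma. The scaled difference was -0.039 for miR-9 (adjusted p = 0.94), -0.15 for miR-9* (adjusted p = 0.72), -0.17 for miR-128 (adjusted p = 0.37) and -0.42 for miR-219 (adjusted p = 0.14). All 4 were detected on all 8 arrays, and all 4 had a positive difference without scaling. A further 3 names were detected too rarely to be tested. miR-129-5p was detected on CpG array 1, miR-129-3p on CpG arrays 1 and 4, and miR-184 on untreated array 2.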

How the data were processed

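Mouse miRNA arrays (1 colour, Cy3) of 4 CpG and 4 untreated samples were scanned by the authors. Per the file headers, spots were read with Agilent Feature Extraction 9.5.3.1 and annotated on mm9. The deposited files hold the intensity of each spot, already background-subtracted, and the total gene signal of each miRNA. The authors' deposited table holds 260 miRNAs, and all 2080 of its values equal the total gene signal within 0.1% or hold a fixed placeholder, as 41 do. limma is named in the submitters' processing notes, and the sources used here do not say for what.

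Spots without flags were averaged per probe and probes per miRNA. Each array was scaled to the 75th percentile of the 177 mouse miRNAs that every array detected, then floored at 0.0107 (log2 -6.55) and logged. The 212 of 567 miRNAs detected on 3 or more arrays in either group were tested with limma 3.58.1 in R 4.3.3, two-sided, with Benjamini-Hochberg adjustment at 0.05. The procedure was checked on simulated data, where 4.53% of the calls were false. The simulated noise was independent between miRNAs. The check therefore could not show how a shift shared by the miRNAs of an array affects the calls. The number of arrays limits the precision. Arm ratios were taken within arrays.

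The named miRNAs are the members, the 5 highest and 3 lowest by r with miR-7a, and the detected names of the miR-671, neural and endocrine list. Members and lists were chosen with earlier results of these data known.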

Additional observations from a re-analysis of the deposited data

Results flagged for a closer look

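Each of 38 sets of 4 values was searched for a value that stood apart from the rest of its set, and 7 such values were found, where chance gives about 1 in 20 sets. miR-7a on CpG array 1 had a scaled level of -2.10, against a mean of -1.38 over the other 3 CpG arrays. The number of mouse miRNAs detected on untreated array 2 was 203, against a mean of 192 on the other 3 untreated arrays.

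The other 5 belong to miRNAs named because their levels followed miR-7a, so they repeat its pattern by choice. On CpG array 1, the scaled level was -5.15 for miR-669b, -6.19 for miR-206 and -1.85 for miR-197, against means of -3.76, -4.63 and -0.38 on the other 3 CpG arrays. On untreated array 3, the scaled level was -4.41 for miR-669b and -4.73 for miR-467c, against means of -5.16 and -5.19 on the other 3 untreated arrays. What set these arrays apart was not tested.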

How the results depend on the processing

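The miR-7a difference (0.67) and the arm ratio's difference (0.67) were positive in all 26 alternatives, and the miR-7a* difference was negative in 14 and positive in 12. Many of these settings could not move the values, so the count is not read as support. Scaling by a single factor per array cannot change the arm ratio. The filter, the limma variance options and the balanced blocks cannot change any of these differences, and the other floors changed none of them. For miR-7a and miR-7a*, the difference was 1.47 and 0.80 without scaling, and 1.23 and 0.56 with scaling on the hur features. It was 0.051 and -0.31 with normexp at an offset of 50 units, and 1.47 and 0.80 on the authors' deposited values. The arm ratio's difference was 0.36 with normexp. Leaving out 1 array gave 0.60 to 0.87 for miR-7a, -0.090 to 0.15 for miR-7a* and 0.51 to 0.80 for the arm ratio. Of all tested miRNAs, 30 passed (16 higher, 14 lower), against 88 without scaling (88 higher), 72 with hur scaling (70 higher, 2 lower), 143 with normexp (4 higher, 139 lower), 93 on the authors' values (93 higher), 18 with median scaling, 17 with quantile normalization, 48 with a floor 2 times higher and 3 with no filter on dim miRNAs. Scaling on all mouse miRNAs gave 16 higher and 7 lower. Leaving out 1 array gave 5 to 71, with 13 without CpG 2, 7 without CpG 3, 11 without untreated 1 and 14 without untreated 4. The list's single call became 0 without scaling, with quantile normalization, with hur scaling, on the authors' values, with only miRNAs detected on all 8 arrays and with no filter, became 5 with normexp, and was 0 to 2 without 1 array. Chosen after seeing the data, the brightest probe of each miRNA gave 16 calls (miR-7a 0.83, miR-7a* 0.11, arm ratio 0.72), and subtracting the mean negative-control signal gave 0 list calls (0.69, 0.084 and 0.61). The causes of these changes were not tested.

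The array labels carry the same numbered names in both groups, as in DC1 and DC1 CpG, without saying what a number marks. Same-numbered arrays lie side by side in a slide row. Pairing is possible but was not taken as shown. Over all tested miRNAs the correlation of deviations of same-numbered arrays was 0.28, -0.26, 0.25 and 0.096, and only number 3 correlated best with its own. Single miRNAs differed in this: same-numbered arrays differed by 0.025, -0.16, -0.15 and 0.13 in miR-9, CpG minus untreated, less than the SD of 0.59 in CpG-treated and 0.64 in untreated cells. By number, 1 to 4, the difference was 0.94, 0.79, 0.44 and 0.50 for the arm ratio, 0.32, 0.90, 0.34 and 1.12 for miR-7a and -0.63, 0.10, -0.10 and 0.62 for miR-7a*. With the replicate block, 38 miRNAs passed. The differences, 0.67 for miR-7a, -0.00062 for miR-7a* and 0.67 for the arm ratio, cannot change with this block. Each number has a CpG array and an untreated array. Depth has no measure on these arrays, and the nearness of the 18-base probe of miR-7a* and of miR-7b to background limits what can be read from them.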
